A study of Mus musculus with 8 samples.

Results

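The miR-17 to miR-92a cluster is a polycistron in which 6 miRNA hairpins are cut from a single primary transcript. It was examined in small RNA libraries from embryoid bodies (EBs), the aggregates in which embryonic stem cells leave pluripotency. Its members were taken by name: every mature miRNA of mmu-miR-17, mmu-miR-18a, mmu-miR-19a, mmu-miR-20a, mmu-miR-19b and mmu-miR-92a (mmu stands for mouse), with any copy number and arm. This gave 14 of the 1099 mature miRNAs listed. They were 6 guide arms (the strand of each hairpin that is mainly kept), 6 passenger arms from the same hairpins, and 2 arms made only by second gene copies on the X chromosome, miR-19b-2-5p and miR-92a-2-5p.

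The cells were KH2-DGCR8, a mouse embryonic stem cell (mESC) line in which doxycycline (Dox) is used to overexpress DGCR8. The 8 libraries were EBs given Dox at days 0, 1, 2 and 4 and EBs without Dox at the same days, 1 library per treatment and day. All carried the transgene, and no library of cells without it was analysed here, so Dox itself and the DGCR8 it induces cannot be told apart. The study asked what overexpressed DGCR8 does to miRNA production. How long Dox was given is not stated in the labels used here. Values are RPM, miRNA reads scaled to a common library total and rounded to whole numbers by the authors. They rested on 362483 to 541342 reads per library, as recovered from the steps of the low values.

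DGCR8 is the RNA-binding partner of the nuclease DROSHA, and together they form the Microprocessor, which frees hairpins from primary transcripts. The miR-17 to miR-92a cluster, also called oncomiR-1, is a target of MYC, promotes proliferation and survival, and is abundant in embryonic and stem cells. Its primary transcript folds into a compact structure, and in mESCs a cleavage step ahead of the Microprocessor is known to release it from an autoinhibited form in which most of the hairpins are poorly cut. The hairpins thus share a transcript, but their mature products need not accumulate equally.

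In GRCm38, the assembly also called mm10, the 6 hairpins lie at chr14:115043671-115044506 on the plus strand, 836 bases in all. They run in the order miR-17, miR-18a, miR-19a, miR-20a, miR-19b-1 and miR-92a-1, and all 6 lie inside an exon of the only transcript that GENCODE gives for the long non-coding RNA gene Mir17hg (chr14:115042879-115046727). The guide arms are shown because their seeds, the bases 2 to 8 that pair with target messages, divide the cluster into 4 families. The sequences are from RefSeq (GRCm38.p6), with the seed in capitals.
miR-17-5p: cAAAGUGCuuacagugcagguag
miR-20a-5p: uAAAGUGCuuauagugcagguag
miR-18a-5p: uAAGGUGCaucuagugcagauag
miR-19a-3p: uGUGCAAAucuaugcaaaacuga
miR-19b-3p: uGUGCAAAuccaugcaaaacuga
miR-92a-3p: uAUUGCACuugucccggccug

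miR-17-5p and miR-20a-5p shared a seed and differed at 2 bases, C1U and C12U, counted from the 5′ end of miR-17-5p. miR-19a-3p and miR-19b-3p shared a seed and differed at U11C alone, counted likewise from miR-19a-3p. The mature miR-19b-3p and miR-92a-3p are made with the same sequence from hairpins at the X-linked miR-106a/miR-363 cluster (chrX:52741983-52742066 and chrX:52741838-52741928, minus strand). Reads of these guide arms therefore cannot be assigned to chromosome 14 or to the X chromosome. The labels do not say how reads that match several miRNAs were treated by the authors.

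miRNAs of the labelled cell type were found at every day, but their presence alone does not identify the cells. The neural and the listed fibroblast miRNAs were likewise all above 0 in each library. All 9 of the listed mESC miRNAs, from the miR-290 cluster, were above 0 in each library, with a sum between 213868 and 373299 RPM with Dox and between 151600 and 423817 RPM without. The 5 epiblast-like miRNAs (miR-302 cluster) summed to between 301 and 2151 RPM with Dox and between 357 and 31166 RPM without, and 6 of 7 fibroblast miRNAs were listed, with sums of 19231 to 57499 and 13344 to 39579 RPM. Sums for the 4 neural miRNAs were 3365 to 5731 RPM with Dox and 3861 to 7889 RPM without, for the 5 endoderm miRNAs 591 to 985 and 282 to 801 RPM, and for the 4 blood miRNAs listed 97 to 1129 and 70 to 1217 RPM. The 2 muscle miRNAs listed summed to at most 53 RPM with Dox and 130 RPM without, with miR-1a-3p at 0 in 4 libraries. The red blood cell miRNA miR-451a was at 0 at days 0, 1 and 2, and miR-144-3p at days 2 and 4, in both treatments.

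The guide arms differed in level, among them the 4 that are made by the chromosome 14 transcript and by no X-linked copy (miR-17-5p, miR-18a-5p, miR-19a-3p and miR-20a-5p). miR-92a-3p averaged 19650 ± 3290 RPM (SD over the 8 libraries, n = 8, which differ in day and treatment), making it number 12 of the 1099 miRNAs by mean. miR-20a-5p averaged 10688 ± 2537 RPM, miR-17-5p 9188 ± 2037, miR-19a-3p 2849 ± 573, miR-19b-3p 2602 ± 513 and miR-18a-5p 1109 ± 350 (SD, n = 8 each). Neighbours in this order kept it in 8 of 8 libraries, except that miR-20a-5p exceeded miR-17-5p in 6 of 8. The intervals of miR-20a-5p and miR-17-5p, and of miR-19a-3p and miR-19b-3p, overlapped within 1 SD. Within a library miR-19b-3p stood at 0.807 to 0.989 of the level of miR-19a-3p. Levels of different miRNAs also carry the ligation preference of the library kit, which was not tested.

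**Figure D1:**
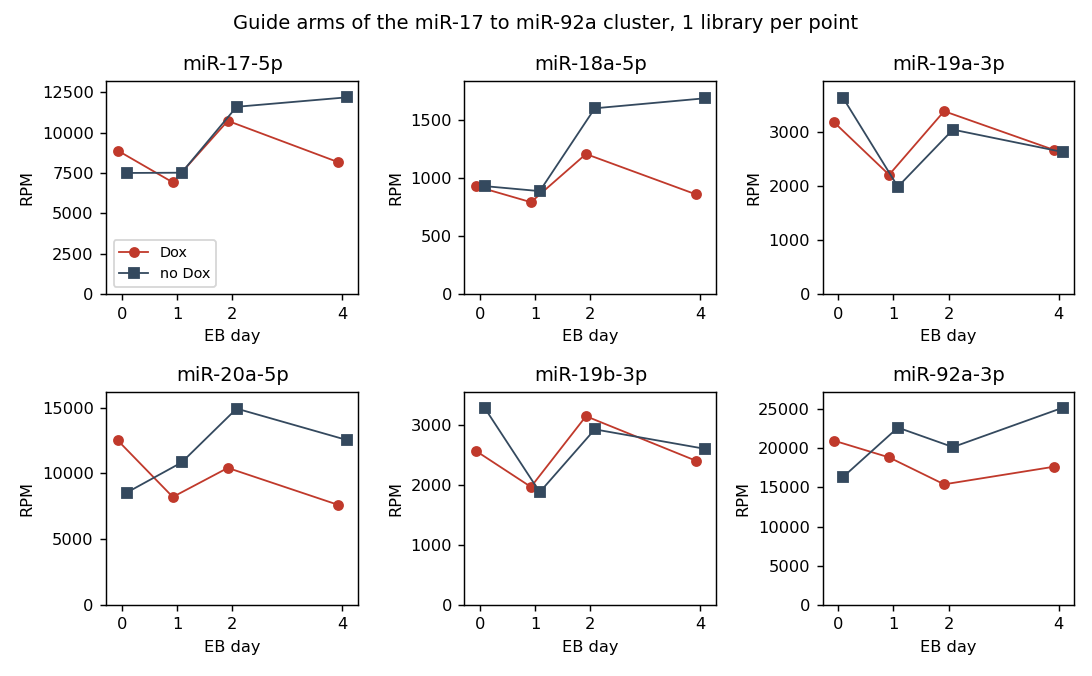
Level of each guide arm in RPM against EB day, with Dox (circles) and without Dox (squares), 1 library per point and linear axes from 0. At day 4 miR-17-5p, miR-18a-5p, miR-20a-5p and miR-92a-3p were lower with Dox, while miR-19a-3p and miR-19b-3p lay close together in both treatments.

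Dox was set against no Dox to ask whether the products of the cluster moved when DGCR8 was induced. The summed guide arms held 4.91% of miRNA reads at day 0 with Dox (95% Wilson interval 4.84 to 4.98), 3.89% (3.84 to 3.95) at day 1, 4.43% (4.37 to 4.49) at day 2 and 3.94% (3.89 to 3.99) at day 4. Without Dox they held 4.02% (3.96 to 4.08), 4.58% (4.51 to 4.64), 5.43% (5.36 to 5.49) and 5.68% (5.61 to 5.76) at the same days. The cluster was thus higher with Dox at day 0 and lower with Dox on each later day, and the widest gap was at day 4. These intervals, like all intervals below, cover counting error only: PCR copies are not independent molecules, and no condition was replicated.

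Over the 4 days in 1 model, no member passed the test for a change with Dox. Of the 14 members, 0 passed the threshold (adjusted p under 0.05 with limma, a moderated linear model with day as a factor), against 1.91% of the 839 miRNAs tested (0.596% lower and 1.31% higher). An unadjusted p under 0.05 was found for 1 of 14, against 88 of the 839. limma-voom on the recovered reads also called 0. The median log2 change of the members was -0.31 and that of the 6 guide arms -0.17, beside 0.03 for all miRNAs tested. All 14 members passed the filter on low values, although miR-19a-5p and miR-92a-2-5p did so with at most 2 and 4 reads in any library.

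The miR-17 seed group, miR-17-5p and miR-20a-5p, represses cell cycle inhibitors such as Cdkn1a. miR-20a-5p stood at 12499, 8197, 10408 and 7605 RPM with Dox at days 0, 1, 2 and 4, and at 8523, 10821, 14917 and 12533 RPM without. It was the more abundant with Dox at day 0 and the less abundant with Dox at days 1, 2 and 4. The ratio of Dox to no Dox was 1.47 (95% counting interval 1.40 to 1.53) at day 0, 0.758 (0.727 to 0.789) at day 1, 0.698 (0.672 to 0.724) at day 2 and 0.607 (0.582 to 0.633) at day 4. Over all days its log2 change was -0.27 (SE 0.17, limma adjusted p = 0.634).

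miR-17-5p stood at 8886, 6918, 10727 and 8176 RPM with Dox at days 0, 1, 2 and 4, and at 7500, 7517, 11598 and 12183 RPM without. Its ratio was 1.18 (1.13 to 1.25) at day 0, 0.920 (0.878 to 0.965) at day 1, 0.925 (0.889 to 0.962) at day 2 and 0.671 (0.644 to 0.700) at day 4. The log2 change over all days was -0.14 (SE 0.17, limma adjusted p = 0.883), and without the day 4 pair it was 0.0041.

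miR-18a-5p, whose hairpin in human cells needs the protein hnRNP A1 for efficient Microprocessor cleavage, stood at 927, 790, 1204 and 857 RPM with Dox at days 0, 1, 2 and 4, and at 928, 885, 1597 and 1683 RPM without. Both treatments were level at day 0. The ratio was 0.998 (0.860 to 1.16) at day 0, 0.893 (0.776 to 1.03) at day 1, 0.754 (0.673 to 0.844) at day 2 and 0.509 (0.450 to 0.576) at day 4, the lowest of the guide arms that day. Over all days its log2 change was -0.39 (SE 0.21, limma adjusted p = 0.516).

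miR-92a-3p, the last in the cluster and an inhibitor of angiogenesis, stood at 20980, 18842, 15398 and 17654 RPM with Dox at days 0, 1, 2 and 4, and at 16313, 22653, 20160 and 25204 RPM without. Its highest value with Dox was at day 0, where its lowest value without Dox lay. The ratio was 1.29 (1.24 to 1.33) at day 0, 0.832 (0.809 to 0.855) at day 1, 0.764 (0.740 to 0.788) at day 2 and 0.700 (0.681 to 0.721) at day 4. It shared with miR-17-5p and miR-20a-5p a counting interval above 1 at day 0 and below 1 on every later day. Over all days its log2 change was -0.20 (SE 0.16, limma adjusted p = 0.743).

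The miR-19 pair, which carries much of the oncogenic activity of the cluster, had another course. miR-19a-3p stood at 3187, 2213, 3393 and 2673 RPM with Dox at days 0, 1, 2 and 4, and at 3646, 1992, 3051 and 2635 RPM without. miR-19b-3p stood at 2572, 1970, 3152 and 2407 RPM with Dox, and at 3289, 1883, 2932 and 2607 RPM without. For miR-19a-3p the ratio was 0.874 (0.809 to 0.944) at day 0 and 1.01 (0.934 to 1.10) at day 4, and for miR-19b-3p it was 0.782 (0.719 to 0.850) and 0.923 (0.848 to 1.005). The pair was therefore lower with Dox at day 0, where miR-17-5p, miR-20a-5p and miR-92a-3p were higher, and had counting intervals that included 1 at day 4, where the other 4 guide arms were lower. At days 1 and 2 the ratio of miR-19a-3p was 1.11 and 1.11, with counting intervals above 1. That of miR-19b-3p was 1.046 and 1.075, with intervals that included 1. On both of these days the ratios of the other 4 guide arms were below 1. Over all days the log2 change was 0.03 for miR-19a-3p (SE 0.19, limma adjusted p = 0.993) and -0.08 for miR-19b-3p (SE 0.19, adjusted p = 0.983).

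This unequal movement can be read within each library. The sum of miR-17-5p and miR-20a-5p over the sum of miR-19a-3p and miR-19b-3p was 3.71, 3.61, 3.23 and 3.11 with Dox at days 0, 1, 2 and 4, and 2.31, 4.73, 4.43 and 4.72 without. It was higher with Dox at day 0 and lower with Dox at days 1, 2 and 4. Being a ratio of miRNAs within a library, it does not depend on scaling, and it shows unequal change without saying which group moved.

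**Figure D2:**
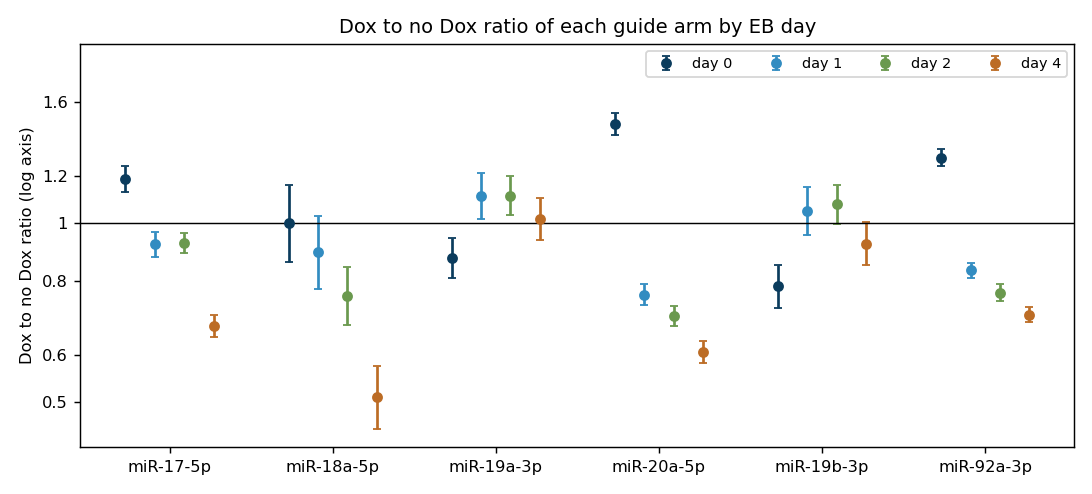
Ratio of Dox to no Dox for each guide arm at days 0, 1, 2 and 4, on a log axis, from 1 library per treatment and day, with bars for 95% counting intervals. miR-20a-5p was at 1.47 at day 0 and 0.607 at day 4, while miR-19a-3p was at 0.874 and 1.01.

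By the counting interval, 3 of the 6 guide arms were higher with Dox at day 0, against 10.7% of all 839 miRNAs tested, and 2 were lower, against 7.87%. At day 4, 0 were higher, against 14.4%, and 4 were lower, against 18.1%. Abundant miRNAs have narrow intervals, so that the share of guide arms past this mark is not directly comparable with that of all miRNAs. At day 1, when 21.2% of all miRNAs passed in either direction (12.4% higher, 8.82% lower), 1 guide arm was higher and 3 were lower. At day 2, when 25.7% passed (10.5% higher, 15.3% lower), 1 was higher and 4 were lower. The median log2 ratio of the guide arms was 0.12, -0.14, -0.25 and -0.54 at days 0, 1, 2 and 4, while that of all miRNAs tested lay between 0 and 0.01 on each day.

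A product of treatment and day in the model tested for a trend of the Dox effect along the time course. The slope of the log2 ratio was -0.28 per day for miR-20a-5p (SE 0.09, limma adjusted p = 0.103), -0.25 for miR-18a-5p (SE 0.13, adjusted p = 0.429), -0.19 for miR-92a-3p (SE 0.08, adjusted p = 0.332) and -0.19 for miR-17-5p (SE 0.09, adjusted p = 0.405). It was 0.04 for miR-19a-3p and 0.04 for miR-19b-3p (SE 0.11 each, adjusted p = 0.948 and 0.943). Of the 14 members, 0 passed, against 0.954% of the 839 tested (0.715% with a falling and 0.238% with a rising ratio), and limma-voom called 0. An unadjusted p under 0.05 was found for 3 of 14, against 95 of the 839. Without the day 0 pair the slope of miR-19a-3p was -0.047 and that of miR-19b-3p -0.067. Among the 4 guide arms with falling ratios the sign held with each day pair left out, the slope of miR-20a-5p lying between -0.54 and -0.11.

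At day 4, where most guide arms were lower with Dox, other miRNAs moved too. The 5 epiblast-like miRNAs summed to 2151 RPM with Dox, against 31166 RPM without, the 9 mESC miRNAs to 213868 RPM, against 151600, and the 6 fibroblast miRNAs to 57499 RPM, against 39579, with none of the listed ones at 0. Their part in the cluster's values was not tested. In bulk RNA, fewer cells of a type and less RNA per cell cannot be told apart.

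Passenger arms report on the same hairpins by the strand that is mostly discarded. The hairpin of miR-92a-1 is shown because its passenger arm had the lowest p of the members with Dox (it was chosen for that after its values were seen), with both arms in capitals and the passenger, miR-92a-1-5p, on the left.
Mir92-1: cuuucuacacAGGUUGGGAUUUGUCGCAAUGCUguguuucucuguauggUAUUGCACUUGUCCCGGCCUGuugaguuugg

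miR-92a-1-5p stood at 123, 166, 134 and 148 RPM with Dox at days 0, 1, 2 and 4, and at 218, 233, 332 and 182 RPM without. It was lower with Dox on 4 of 4 days. Its ratio of Dox to no Dox had an interval below 1 at days 0, 1 and 2, with values of 0.564, 0.712 and 0.403, and included 1 at day 4 (0.812, interval 0.579 to 1.14). Its log2 change of -0.73 (SE 0.27) had an unadjusted p = 0.00799 and did not pass over all miRNAs (limma adjusted p = 0.192). At day 0 miR-92a-3p was thus higher with Dox and miR-92a-1-5p lower, although reads of miR-92a-3p cannot be assigned to this hairpin alone.

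The share of passenger to guide reads differed widely between hairpins. miR-17-3p was at 4.13 to 7.33 per 100 of miR-17-5p across the 8 libraries, and miR-18a-3p at 3.32 to 6.58 per 100 of miR-18a-5p. miR-20a-3p reached only 0.04 to 0.24 per 100 of miR-20a-5p, and miR-19a-5p was listed at 0 in 5 libraries. miR-17-3p stood at 435, 440, 562 and 338 RPM with Dox at days 0, 1, 2 and 4, and at 550, 445, 745 and 516 RPM without, lower with Dox on 4 of 4 days. The counting interval of its ratio lay below 1 at days 0, 2 and 4 and included 1 at day 1. miR-18a-3p stood at 36, 52, 40 and 41 RPM with Dox and at 46, 36, 95 and 83 RPM without. Its ratio was 0.772 (0.350 to 1.65) at day 0, 1.47 (0.762 to 2.91) at day 1, 0.426 (0.233 to 0.753) at day 2 and 0.491 (0.270 to 0.880) at day 4, so that it was below 1 beyond counting error on the last 2 of these days.

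The 2 copies of miR-19b and of miR-92a can be told apart by their passenger arms, whose sequences differ between chromosome 14 (copy 1) and the X chromosome (copy 2). They are shown with bases 2 to 8 in capitals.
miR-19b-1-5p: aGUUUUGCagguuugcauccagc
miR-19b-2-5p: aGUUUUGCagauuugcaguucagc
miR-92a-1-5p: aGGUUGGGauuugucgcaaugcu
miR-92a-2-5p: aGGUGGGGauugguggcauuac

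miR-19b-1-5p, from chromosome 14, stood at 38, 33, 91 and 30 RPM with Dox at days 0, 1, 2 and 4, and at 61, 62, 95 and 28 RPM without. miR-19b-2-5p, from the X chromosome, stood at 5, 27, 45 and 30 RPM with Dox and at 5, 18, 81 and 19 RPM without. Reads of the X-linked arm made up 12.5% of both at day 0 with Dox (2 of 16 reads, 95% Wilson interval 3.50 to 36.0) and 7.41% without (2.06 to 23.4). At day 4 they made up 50.0% with Dox (33.6 to 66.4) and 41.2% without (21.6 to 64.0). Both arms peaked at day 2, and the X-linked share was lowest at day 0 in both treatments. For miR-92a the chromosome 14 arm had 45 to 140 reads per library and the X-linked arm 0 to 4.

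**Figure D3:**
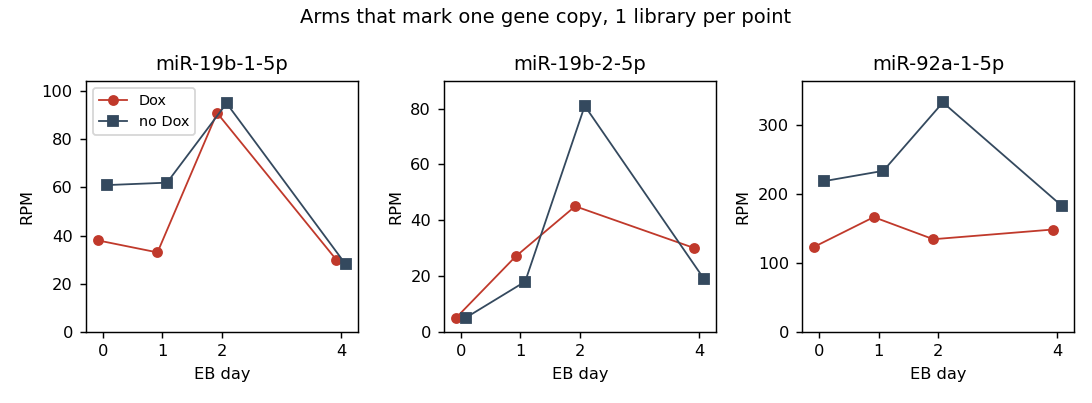
Level in RPM against EB day of 3 passenger arms that each come from a single gene copy, with Dox (circles) and without Dox (squares), 1 library per point. miR-19b-2-5p, from the X chromosome, was at 5 RPM in both day 0 libraries and at 45 RPM with Dox and 81 RPM without at day 2.

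EB differentiation was followed by setting each later day against day 0, with the libraries of both treatments. The median of all 839 miRNAs shifted by 0.37, 0.48 and 0.56 on the log2 scale at days 1, 2 and 4, and changes of the members are to be read against it. With the deposited scaling and the filter of 1 RPM in 2 libraries, no guide arm passed the limma threshold at any day. An unadjusted p under 0.05 was found for 3, 2 and 1 of the 14 members at days 1, 2 and 4. Of the 839 miRNAs, 168, 232 and 278 had such a p. At day 4 the log2 change was 0.29 for miR-17-5p (SE 0.24, limma adjusted p = 0.452), 0.37 for miR-18a-5p (SE 0.29, adjusted p = 0.409) and 0.19 for miR-92a-3p (SE 0.23, adjusted p = 0.616). Under median-of-ratios scaling, which brought the median of all miRNAs to 0.01, these became -0.31, -0.23 and -0.41. The direction of these 3 miRNAs at day 4 therefore depended on the scaling. It also differed between treatments: as deposited, each was lower at day 4 than at day 0 with Dox and higher without. The deposited changes thus average opposite courses.

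The miR-19 pair was lowest at day 1. miR-19a-3p stood at 2213 and 1992 RPM at day 1, with and without Dox, against 3187 and 3646 RPM at day 0, a log2 change of -0.70 (SE 0.27, limma adjusted p = 0.0850). For miR-19b-3p the change was -0.59 (SE 0.27, adjusted p = 0.180). Under median-of-ratios scaling the pair fell by 1.08 and 0.97 (limma adjusted p = 0.00343 and 0.00952). At day 4 under that scaling it fell by 0.96 and 0.81 (adjusted p = 0.00370 and 0.0197), where the deposited scaling gave -0.36 and -0.22 (adjusted p = 0.376 and 0.630). Relative to the median miRNA, miR-20a-5p also fell at day 4, by 0.68 (limma adjusted p = 0.0337), against -0.08 as deposited. That fit averages both treatments, which went opposite ways as deposited. From day 0 to day 4 miR-20a-5p went from 12499 to 7605 RPM with Dox, and from 8523 to 12533 RPM without. In the deposited scaling its SE was 0.24, and from its own spread alone it would be 0.40.

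The member that rose was miR-19b-2-5p, which comes from the X-linked copy and not from chromosome 14. Its log2 change was 1.94 (SE 0.67, limma adjusted p = 0.0453) at day 1, 3.36 (SE 0.67, adjusted p = 2.39e-05) at day 2 and 2.05 (SE 0.67, adjusted p = 0.0119) at day 4, each from 2 reads in either day 0 library, so that the fold depends on the pseudocount. It was 1 of 14 members higher at each day, beside 7.03%, 15.3% and 21.9% of the 839 miRNAs, and 0 were lower, beside 1.07%, 2.03% and 3.81%. In either direction the shares of all miRNAs called were 8.1%, 17.3% and 25.7%. The day 2 call was lost without the no Dox day 2 library (limma adjusted p = 0.119) and with no mean-variance trend (0.0924). The day 1 call was lost with each of the 4 libraries left out (limma adjusted p = 0.208 to 0.433), and also with a pseudocount of 5, no filter, both other scalings, no robust option, no trend, limma-voom and no treatment term (0.0617 to 0.208). The day 4 call was lost without the Dox day 4, Dox day 0 or no Dox day 0 library (limma adjusted p = 0.104, 0.0788 and 0.0674), and with both other scalings, no robust option, no trend and limma-voom (0.0539 to 0.0914).

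The paralogous miR-106a/miR-363 cluster on the X chromosome was set beside the chromosome 14 cluster because it makes the same seeds. Of its 8 arms with names of their own, 4, 6 and 5 rose at days 1, 2 and 4 and 0 fell, beside 7.03%, 15.3% and 21.9% of all 839 miRNAs higher and 1.07%, 2.03% and 3.81% lower. With limma-voom 3, 5 and 5 rose, beside 5.36%, 12.5% and 20.7% of all. With no mean-variance trend 0 of all 839 miRNAs passed at day 1, 0 at day 2 and 3 at day 4. No call at days 1 and 2 was therefore kept in that setting. miR-363-3p, which has the miR-92a seed, stood at 2394, 3283, 7238 and 6909 RPM with Dox at days 0, 1, 2 and 4, and at 1418, 2972, 6448 and 10977 RPM without, a log2 change of 2.24 at day 4 (SE 0.26, limma adjusted p = 1.03e-15). miR-18b-5p, the counterpart of miR-18a-5p, rose by 2.14 (SE 0.27, adjusted p = 2.93e-13) and miR-20b-5p, the counterpart of miR-20a-5p, by 1.31 (SE 0.26, adjusted p = 8.86e-06). From the spread of each miRNA alone the SEs of miR-363-3p, miR-18b-5p and miR-20b-5p would be 0.41, 0.44 and 0.34. The third paralogue, miR-106b/miR-25, which lies in Mcm7, had 0, 1 and 0 of its 6 arms higher at these days and 0 lower. Under median-of-ratios scaling 2, 4 and 5 arms of miR-106a/miR-363 rose, beside 4.17%, 6.08% and 11.9% of all, and 0 fell. Under the same scaling 0, 1 and 2 arms of miR-106b/miR-25 fell, beside 4.05%, 6.08% and 7.27% of all, and 0 rose. These were miR-25-3p at day 2 (-0.76, against -0.29 as deposited) and miR-25-3p and miR-93-5p at day 4 (-0.95 and -1.13, against -0.35 and -0.53), while miR-106b-5p at day 2 was at 0.42 and no longer passed, against 0.89 as deposited. At day 4 under that scaling the changes were 1.64 for miR-363-3p, 1.54 for miR-18b-5p and 0.71 for miR-20b-5p. With Dox, 0 arms of either paralogue passed in limma or limma-voom, in the effect over all days (1 of 8 and 0 of 6 at an unadjusted p under 0.05) and in its change with day (4 of 8 and 0 of 6). Of all 839 miRNAs, 88 had such an unadjusted p in the effect over all days and 95 in its change with day.

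Ratios within a library compare both clusters without regard to scaling. The partners are shown with the same capitals as above.
miR-106a-5p: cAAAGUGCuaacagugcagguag
miR-20b-5p: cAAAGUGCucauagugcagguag
miR-18b-5p: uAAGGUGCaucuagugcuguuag
miR-363-3p: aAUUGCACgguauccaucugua

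miR-363-3p over miR-92a-3p was 0.114, 0.174, 0.470 and 0.391 with Dox at days 0, 1, 2 and 4, and 0.0869, 0.131, 0.320 and 0.436 without. miR-20b-5p over miR-20a-5p was 0.214, 0.284, 0.575 and 0.607 with Dox, and 0.188, 0.217, 0.468 and 0.455 without. In both pairs every library of days 2 and 4 lay above every library of days 0 and 1. The mean log2 ratio was higher by 1.70 for miR-363-3p and by 1.23 for miR-20b-5p at days 2 and 4 than at days 0 and 1. This grouping of days was chosen after the values were seen, so the differences are given as a description, with no test.

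miR-18b-5p over miR-18a-5p was 1.15, 2.95, 2.95 and 3.61 with Dox at days 0, 1, 2 and 4, and 1.12, 2.24, 2.61 and 4.12 without, a mean difference of 0.94 on the log2 scale between the same days. miR-106a-5p over miR-17-5p stayed between 0.770 and 0.945 in all 8 libraries (mean log2 difference 0.16). miR-106a-5p and miR-17-5p differ by a single base, U10A counted from the 5′ end of miR-17-5p. A read with an error at that base might be given to either, which was not tested. miR-18b-5p differs from miR-18a-5p at A18U and A20U, and miR-20b-5p from miR-20a-5p at U1C and U10C, counted likewise. A read that ends before base 18 would match both miR-18a-5p and miR-18b-5p, and its part in their ratio was not tested.

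**Figure D4:**
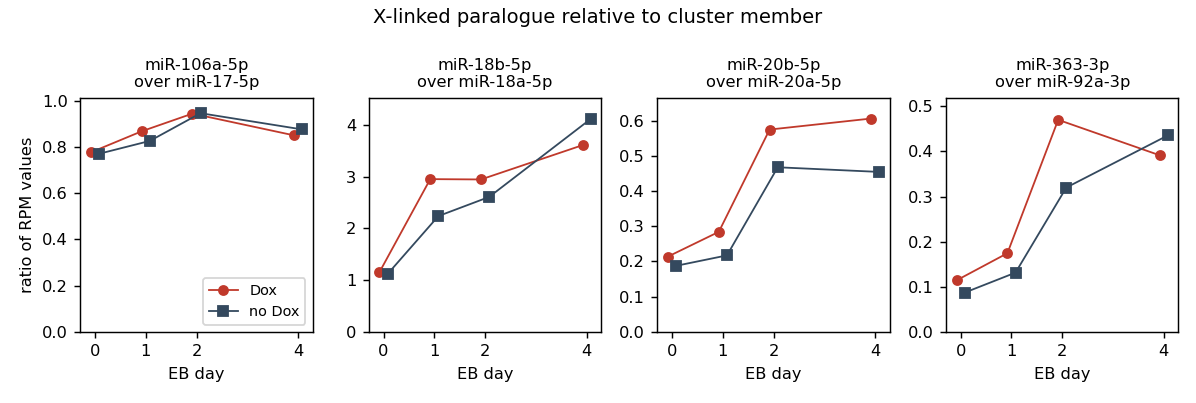
Ratio of an X-linked paralogue to its chromosome 14 counterpart against EB day, from the RPM values of each library, with Dox (circles) and without Dox (squares), linear axes from 0. miR-363-3p over miR-92a-3p and miR-20b-5p over miR-20a-5p were higher in all libraries of days 2 and 4 than in those of days 0 and 1, while miR-106a-5p over miR-17-5p stayed between 0.770 and 0.945.

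Seed families sum all miRNAs that can pair with the same sites. In the miR-18 family the cluster supplied 46.4% of the RPM at day 0 with Dox and 47.2% without, but 21.7% at day 4 with Dox and 19.5% without, as miR-18b-5p grew. In the miR-17 family of 6 miRNAs it supplied 47.5% to 57.0% over the 8 libraries. In the miR-92 family of 6, which includes miR-25-3p, miR-32-5p, miR-92b-3p, miR-363-3p and miR-367-3p, it supplied 41.0% to 56.2%, counting all of miR-92a-3p as the cluster's. The miR-19 family had no other miRNA among the 926 with a matched sequence. At day 4 the miR-17 family summed to 31232 RPM with Dox, against 47024 RPM without, and the miR-18 family to 3951 RPM, against 8613 RPM.

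**Figure D5:**
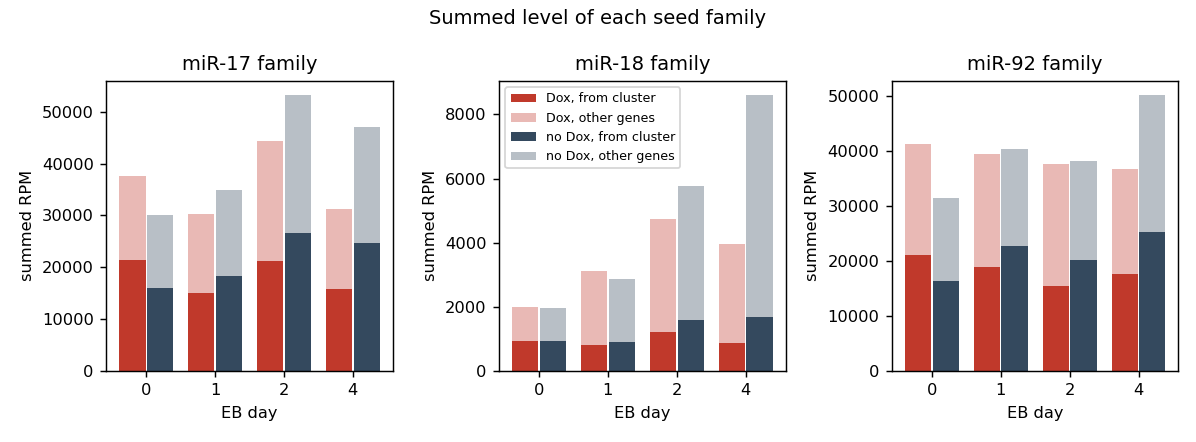
Summed RPM of 3 seed families by EB day, with Dox (red, left bar) and without Dox (dark blue, right bar), split into the part from the miR-17 to miR-92a cluster (solid) and from other genes (pale), where all miR-92a-3p and none of the miRNAs of other names is counted as the cluster's. The pale part of the miR-18 family was larger at day 4 than at day 0 in both treatments.

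At day 4 the summed arms that carry the shared seeds were lower with Dox in each of the 3 paralogous clusters. The ratio of Dox to no Dox was 0.693 for the chromosome 14 cluster, 0.629 for miR-106a-5p, miR-18b-5p, miR-20b-5p and miR-363-3p, and 0.750 for miR-106b-5p, miR-93-5p and miR-25-3p. At day 0 these ratios were 1.22, 1.33 and 1.14, and at days 1 and 2 they were 0.851 and 0.816, 1.03 and 0.942, and 1.08 and 1.12. The 3 sums were thus higher with Dox at day 0 and lower at day 4, and differed in direction at days 1 and 2, with no test of the difference. The sum for chromosome 14 holds all of miR-92a-3p and miR-19b-3p, whose reads may also come from the X chromosome. The X-linked sum holds neither, so the sums do not fully separate the clusters.

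Outside these clusters, the one whose level followed the summed guide arms most closely over the 8 libraries was miR-374b-5p, out of 254 candidates that averaged 100 RPM or more (Pearson's r = 0.84 on the log2 scale). It stood at 752, 659, 853 and 595 RPM with Dox at days 0, 1, 2 and 4, and at 458, 698, 982 and 1018 RPM without, likewise higher with Dox at day 0 and lower later. miR-200a-3p (r = 0.74), miR-450b-5p (0.68), miR-362-5p (0.68) and miR-1197-3p (0.65) came next. Among the guide arms, miR-19a-3p and miR-19b-3p followed each other (r = 0.96), whereas miR-19b-3p and miR-92a-3p did not (r = -0.49). These are descriptions over 8 libraries that share days and treatments.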

How the data were processed

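Per the labels' protocols, RNA was extracted with TRIzol and NEBNext reagents served for the small RNA libraries; the submitters' processing notes name Bowtie and mm10, without their role. The deposited values are scores: whole numbers, with library sums of 999965 to 1000047, read as RPM rounded by the authors. A row naming no miRNA held no values and was left out. For each library, the 1 total between 200000 and 700000 reads was found for which every value is the rounding (within 0.5 RPM) of whole reads that sum to it, matching 100% of values. Counts of 3 reads are worth 5.54 to 8.28 RPM.

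miRNAs with at least 1 RPM in at least 2 libraries (839) were tested as log2(value + 1) in limma 3.58.1 (R 4.3.3), with mean-variance trend, robust prior and Benjamini-Hochberg adjustment at 0.05. Treatment and day (a factor) were the terms, joined for the trend by treatment times day as a number. Prior degrees of freedom were infinite for all except 39 miRNAs, or 3 with the product, so most SEs come from the trend over all miRNAs. Fold changes on this scale understate those of low miRNAs. Treatments were matched by day by design. The labels do not say whether cultures were separate, so p-values may reflect technical spread. Ratio intervals are exact conditional binomial. The steps were tested on simulated data. Members, lists and tests were chosen with earlier results of these data known; all members are named, with fitted values for guide arms, for the other arm that passed and for miR-92a-1-5p. edgeR was not run, the file holding no counts. Of the 1099 miRNAs, 926 matched RefSeq sequences by name.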

Additional observations from a re-analysis of the deposited data

Results flagged for a closer look

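miR-17-5p, miR-20a-5p and miR-92a-3p had Dox to no Dox ratios on opposite sides of 1 at the first and last day, with counting intervals that excluded 1 at each. miR-17-5p had a ratio of 1.18 at day 0 and 0.671 at day 4, miR-20a-5p one of 1.47 and 0.607, and miR-92a-3p one of 1.29 and 0.700. Each rests on 1 library per treatment and day, so the difference between these days was not tested as such, and the change of the Dox effect over all days did not pass in limma (adjusted p = 0.405, 0.103 and 0.332).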

How the results depend on the processing

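With Dox, and for its change with day, 0 members passed under every alternative run, including each day pair left out. edgeR on recovered reads was not run. In some of these runs 0 of all 839 miRNAs passed, so their 0 says nothing about the members. For Dox these were the runs without the robust option, with no trend and with no day term. For its change with day they were those without the robust option, with no trend, and without the day 2 or day 4 pair. The run with days 2 and 4 set against days 0 and 1 was also of this kind. At day 1, where 1 member passed, 0 did with a pseudocount of 5, no filter, no robust option, no trend, limma-voom or no treatment term. Those runs called 67, 58, 13, 0, 53 and 44 of all miRNAs, out of 839 each except 999 with no filter. At day 1, 2 passed with a mean of at least 10 (1 higher, 1 lower) or median-of-ratios scaling (both lower). Of all miRNAs, 13.6% were higher and 2.4% lower with that filter, and 4.05% were lower with that scaling. At day 2, 0 passed with no trend, where 0 of all 839 miRNAs did. At day 4, 3 passed with median-of-ratios scaling and 2 when scaled outside the miR-290 cluster (all lower under both), beside 7.27% and 6.67% of all miRNAs lower. None passed at day 4 without the robust option, with no trend or with limma-voom, which called 157, 3 and 204 of the 839. With 1 library left out, the counts ran from 0 to 0, 0 to 2 and 0 to 1 at days 1, 2 and 4. The causes were not tested.

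Among guide arms, some log2 changes between days changed sign under scaling. With median of ratios they were -0.22 for miR-92a-3p at day 1; -0.025, -0.20 and -0.41 for miR-17-5p, miR-20a-5p and miR-19b-3p at day 2; and -0.31, -0.23 and -0.41 for miR-17-5p, miR-18a-5p and miR-92a-3p at day 4. Scaled outside the miR-290 cluster, miR-19b-3p was at -0.10 at day 2, and miR-17-5p, miR-18a-5p and miR-92a-3p at -0.21, -0.13 and -0.32 at day 4.

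With 1 day pair left out, the Dox log2 change ran from -0.27 to 0.0041 for miR-17-5p, -0.0072 to 0.11 for miR-19a-3p and -0.13 to 0.018 for miR-19b-3p, and its slope from -0.047 to 0.17 and -0.067 to 0.23 for the miR-19 pair. With 1 library left out, day 1 changes ran from -0.44 to 0.078 (miR-17-5p), -0.41 to 0.11 (miR-18a-5p), -0.68 to 0.42 (miR-20a-5p) and -0.22 to 0.54 (miR-92a-3p). Day 2 changes ran from -0.23 to 0.068 (miR-19a-3p), -0.28 to 0.82 (miR-20a-5p), -0.12 to 0.25 (miR-19b-3p) and -0.45 to 0.31 (miR-92a-3p). Day 4 changes ran from -0.019 to 0.76 (miR-18a-5p), -0.63 to 0.47 (miR-20a-5p) and -0.19 to 0.57 (miR-92a-3p). Of the recomputed log2 changes of guide arms, 384 kept their direction and side of the threshold, 10 passed where the reported value did not and 32 changed sign. Of the recomputed counts, 48 stayed within 1.5 times and 23 moved, with no regard to which member was called: at day 1, scaled outside the miR-290 cluster, the 1 member called was miR-19a-3p, which was lower, in place of miR-19b-2-5p. The Dox comparison was paired by day throughout, except in the alternative with no day term, and the labels give no replicate numbers. miR-19b-2-5p, miR-19a-5p and miR-92a-2-5p are limited by depth.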
